A study of Mus musculus with 9 samples.

Results

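The comparison described here sets the running model against the unstressed control in the medial prefrontal cortex of mice, and uses 6 of the 9 libraries of the study, 3 in each group. The libraries were assigned by their group labels. The control libraries carry the label No-stress, the running libraries the label exercise, and the remaining 3 libraries, of the model of chronic unpredictable stress (CUS), the label Stress. Each label also holds the terms 4week and week8, whose meaning is not stated. The series description places the running in mice that had been exposed to the stress, so the running group differs from the control by stress exposure and by exercise together, and in this comparison these cannot be told apart. The sources used here give no strain, sex, age, genotype or running regime, and no group of unstressed running mice is analysed here. The question this comparison addresses is how far the cortex of stressed mice that ran differs from that of mice that were never stressed. The CUS values are given beside the others for orientation. The comparison of CUS with control shares its control libraries with the one described here, so likeness between them is not read as a result.

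The medial prefrontal cortex holds excitatory projection neurons, inhibitory interneurons, glia and vessels, and in rodents it takes part in the control of the hormonal and behavioural response to stress. Chronic unpredictable stress, a schedule of changing mild stressors, is widely used as a model of depression in mice. Running is known in rodents to act on neuronal activity, on energy use and on the supply of growth factors to the brain.

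Expression was measured as FPKM, a read count scaled to transcript length and to the mapped reads of a library, in bulk tissue. FPKM sums lay between 370441 and 390537 in the 6 libraries, and 17101 to 17280 genes were above 0. No label says whether the libraries came from separate animals, so the spread behind the p-values is that between libraries and may be technical. Values of a group are printed in the order of replicates 1 to 3, numbers that only name libraries. Read depth is not given in the files. The smallest steps between low values of 104 genes gave relative depths between 0.982 and 1.036 for the 9 libraries. Only values close to each other entered this estimate, so it could not have shown a large difference in depth. Transcripts of cortical neurons were present in all 9 libraries, with a mean of 726 FPKM for Slc17a7, the vesicular glutamate transporter of excitatory neurons, and 85.9 FPKM for Gad1, an enzyme of GABA synthesis. Drd2 of striatal neurons averaged 0.956 FPKM. This 1 low marker does not stand for all striatal genes, since a list of 13 summed to 140 to 179 FPKM in each library. A pair of control libraries stood apart. Control replicate 1 held transcripts of skeletal muscle, with a summed 578 FPKM over 20 muscle genes chosen after the values were seen, against 44.9 and 28.8 in the other controls, 22.4 to 34.5 in CUS and 16.99 to 51.1 in running. Ttr, which choroid plexus makes in large amounts, was at 212 FPKM in control replicate 3, where the other 8 libraries had 5.65 to 38.8, and the same library had the highest sum of 26 myelin genes. Named genes whose log2 difference moved by over 1.5 times without 1 library are given with and without that library. CUS replicate 3 stood apart as well, with an FPKM sum of 423257 and a value of 28.4 on the first principal component (30.3% of the variance), where the controls at -7.51 to -2.05 and the running libraries at -10.8 to -4.00 overlapped. It enters the comparison only through the shared spread, and without it 10 genes were called in place of 3. The count of called genes was not particular to that library, since 10 were called without CUS replicate 1 and 7 without CUS replicate 2. Looser counts were. Genes at adjusted p under 0.1 were 150 without CUS replicate 3, against 38 and 32 without CUS replicates 1 and 2 and 33 with all libraries. Those at unadjusted p under 0.05 were 2297, against 1633, 1786 and 1628. On the second component, which held 17.97% of the variance, the controls lay between 7.59 and 14.9, the running libraries between -12.4 and -4.76 and the CUS libraries between -3.72 and 4.17.

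**Figure D1:**
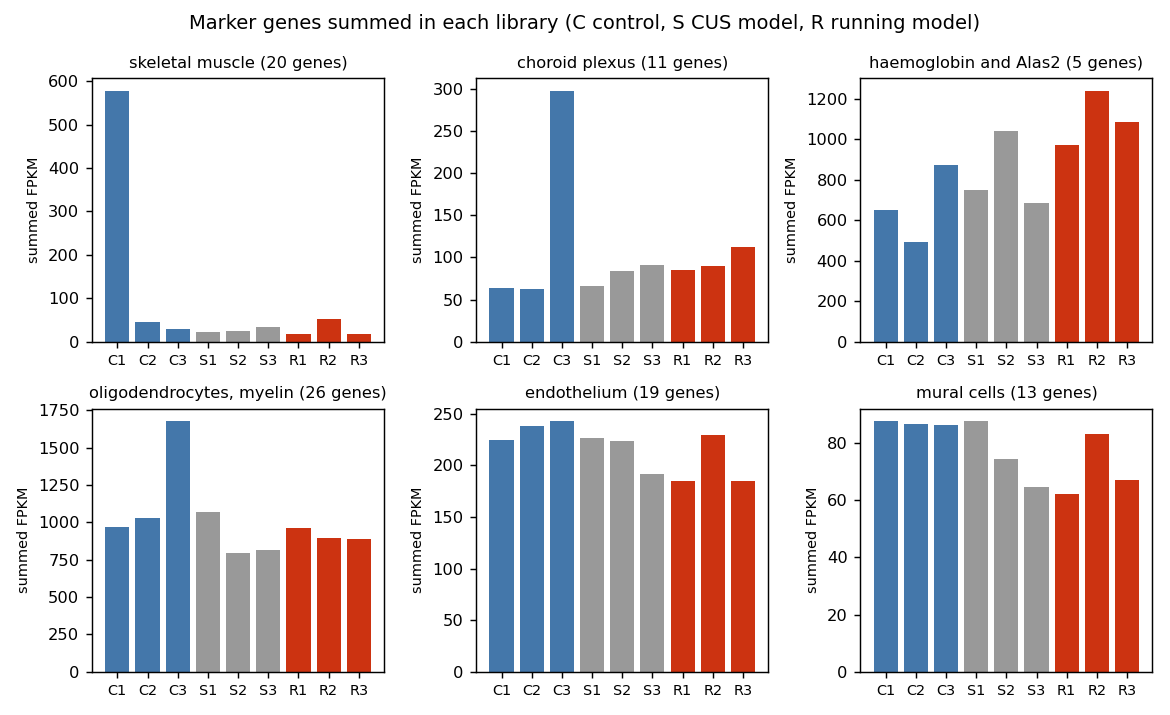
Summed FPKM of marker genes (vertical axes) in each of the 9 libraries (horizontal axes, 3 control, 3 CUS model and 3 running model libraries, numbered by replicate), 1 panel for each of 6 cell types or tissues. Control replicate 1 stands out for skeletal muscle at 578, control replicate 3 for choroid plexus at 298 and myelin at 1677, and the 3 running libraries have 972 to 1238 of haemoglobin genes and Alas2.

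Of 14013 genes that reached 0.5 FPKM in 3 or more of the 9 libraries, 3 passed the adjusted threshold in running against control (limma, adjusted p under 0.05), which is 0.0214% of those tested. Serinc2 and Ccnd2 rose, which is 0.0143% of genes, and the predicted gene Gm36327 was lower, which is 0.00714%. A looser rule of adjusted p under 0.1 gave 33 genes (0.235%), of which 20 were higher (0.143%) and 13 lower (0.0928%). Without adjustment, 1628 genes (11.6%) had a p under 0.05, 722 higher (5.15%) and 906 lower (6.47%). Running and control values did not overlap in 3142 genes (22.4%), 1468 higher (10.5%) and 1674 lower (11.9%) in running. Differences were small: the median over all genes was -0.02 on the log2(FPKM + 0.5) scale, with 6142 genes above 0 (43.8%) and 7871 below (56.2%), and 131 genes passed 1.5-fold. Of the 25 genes past 2-fold, 19 were lower, and 12 of these were genes of the muscle list with their highest value in control replicate 1. Des and Myl2, which are lower past 2-fold but not on that list, were highest in the same library, at 5.60 and 3.05 FPKM. The higher genes at p under 0.05 had a median transcript length of 2011 bases against 1297 for the lower ones and 1501 for all genes. Higher genes were 44.35% of those at p under 0.05, and this share was 63.01% (1012 against 594) after rescaling to TPM, 55.52% (936 against 750) after quantile normalization and 60.65% (1019 against 661) with the trend of length and GC content removed.

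**Figure D2:**
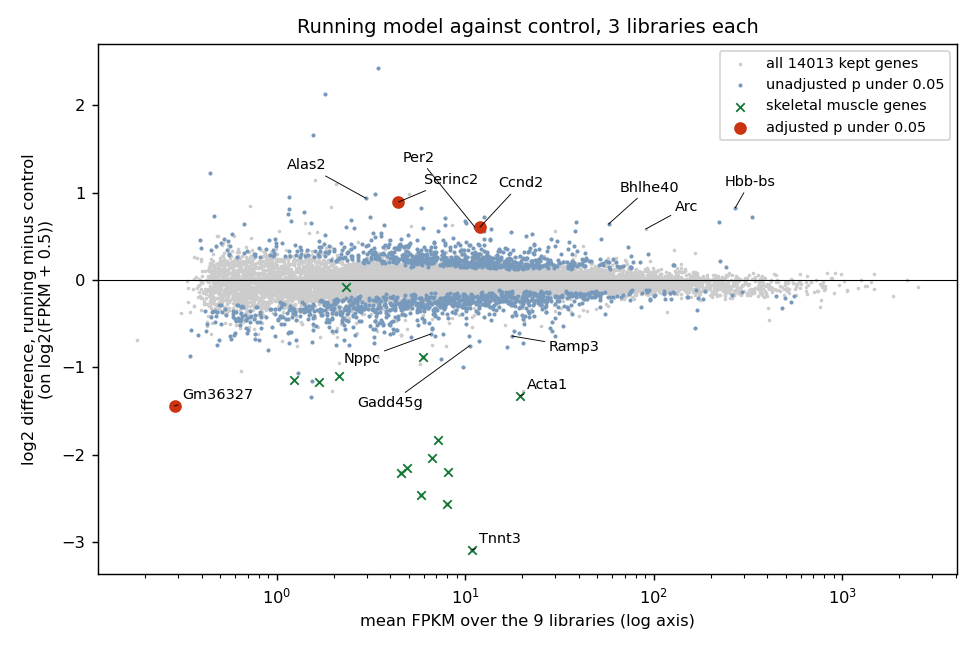
Log2 difference between running and control on the log2(FPKM + 0.5) scale (vertical axis) against the mean FPKM over the 9 libraries (horizontal log axis), 1 point for each of 14013 genes, with genes at unadjusted p under 0.05 in blue, skeletal muscle genes as crosses and the 3 genes at adjusted p under 0.05 in red. Serinc2 and Ccnd2 lie above 0, most genes lie close to the median of -0.02, and the lowest points are muscle genes such as Tnnt3.

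Serinc2 and Ccnd2 were the called genes that the naming rule admits. Gene positions are given on the RefSeq annotation of GRCm38.p6. Serinc2 (chromosome 4, 130253495 to 130279218) is a membrane protein of the family named for the incorporation of serine into lipids. It had 5.83, 5.86 and 5.46 FPKM in running replicates 1, 2 and 3 and 3.32, 2.8 and 2.48 in the controls. All running values were above all control values, and the CUS values of 4.14, 5.22 and 4.65 FPKM lay between them. The log2 difference was 0.89 (SE 0.107, limma adjusted p = 0.0265), that is 5.72 ± 0.223 against 2.87 ± 0.424 FPKM (SD, n = 3 each). Ccnd2 (chromosome 6, 127125162 to 127152188) encodes cyclin D2, a partner of the cell cycle kinases that act in G1. The running libraries had 14.2, 16.4 and 15.6 FPKM and the controls 10.5, 9.58 and 9.78. Here too the groups did not overlap, while CUS, at 9.85, 11.1 and 10.6 FPKM, overlapped the control. For Ccnd2 the log2 difference was 0.60 (SE 0.0730, limma adjusted p = 0.0265), with means of 15.4 ± 1.09 against 9.96 ± 0.495 FPKM. Both calls were lost without control replicate 2 or 3 or without any 1 running library, with adjusted p between 0.0594 and 0.201, and with no filter on low values, with adjusted p of 0.128 for Serinc2 and 0.10 for Ccnd2. Their log2 differences kept their sign in each of the 19 alternative settings.

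Gm36327 (chromosome 6, 47675582 to 47678797), a predicted gene that the naming rule passes over and that was picked once its values were known, stood at 0.79, 0.89 and 0.9 FPKM in control. All CUS and running libraries list it at 0 (limma adjusted p = 0.00300). A listed 0 can be a failed estimate, so its fold change is left out. It stayed called in each of the 17 settings in which it was tested, those without 1 library and with no filter on low values included. It passed the main filter through its control values alone, and groups listed at 0 have no spread. Staying called is therefore no support for a difference. With genes of at least 2 FPKM it was not tested, which left 2 called genes.

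The genes named next are those of the 12 smallest p values in each direction, with groups that do not overlap, which the rule requires. Apart from Serinc2 and Ccnd2, none passed the adjusted threshold, and their limma adjusted p lay between 0.0586 and 0.102. The non-overlap of their groups is fixed by the rule and supports nothing.

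Among the higher genes were a pair of clock repressors. Bhlhe40 (chromosome 6, 108660629 to 108666925) encodes a basic helix-loop-helix repressor that binds E-box sequences. Values were 67.99, 75.2 and 71.8 FPKM in running and 51.1, 41.7 and 45.2 in control. Its log2 difference was 0.64 (SE 0.0905, adjusted p = 0.0586), and CUS had 48.7, 60.03 and 55.5 FPKM. Per2 (chromosome 1, 91415977 to 91459351) is a core period protein of the circadian clock. In running it stood at 13.3, 14.6 and 12.4 FPKM, against 9.7, 8.22 and 8.07 in control. The log2 difference of Per2 was 0.61 (SE 0.0862, adjusted p = 0.0586). CUS values of Per2, at 11.2, 12.3 and 11.2 FPKM, were above all control values and below all running values. Both genes passed the threshold without control replicate 1, at adjusted p of 0.0373 for Bhlhe40 and 0.0373 for Per2. Neither was called when any other control library or any running library was left out. Over the alternative settings the limma adjusted p of both genes reached 0.273.

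Kcng1 (chromosome 2, 168260117 to 168281533), a modifier subunit of voltage-gated potassium channels, was also higher. Running values of 15.2, 15 and 13.99 FPKM compare with 10.5, 9.88 and 9.09 in control. Its log2 difference was 0.56 (adjusted p = 0.0586). After rescaling to TPM it was called, but not without any 1 control or running library. Over the alternative settings its limma adjusted p reached 0.273. Islr2 (chromosome 9, 58196297 to 58204319), an immunoglobulin and leucine-rich repeat membrane protein of axons, had 27.9, 27.8 and 25.9 FPKM in running against 20.2, 18.4 and 17.7 in control, a log2 difference of 0.52. Robo3 (chromosome 9, 37416045 to 37433436), which directs commissural axons at the midline, had 4.84, 4.79 and 5.15 FPKM against 3.22, 3.17 and 3.35, a log2 difference of 0.53. The CUS libraries had less Robo3 than either group, at 2.81, 2.26 and 2.67 FPKM. These 3 genes are of neuronal membranes, and none was called.

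Kinases made up another pair. Sbk1 (chromosome 7, 126248397 to 126295016), a serine/threonine kinase of brain, had 25.3, 27.99 and 22.8 FPKM in running and 18.2, 17.04 and 18.03 in control, a log2 difference of 0.50. For Nuak1 (chromosome 10, 84370900 to 84440668), a kinase related to the AMP-activated kinase, the values were 20.9, 22.1 and 21.1 against 15.8, 14.7 and 12.96 FPKM, a log2 difference of 0.55. In both genes running replicate 2 was the highest of all 9 libraries. The others of the 12 were Banp (chromosome 8, 121947972 to 122029260), a nuclear protein that binds unmethylated CG-rich motifs, Fastkd5 (chromosome 2, 130613846 to 130630002), which acts on mitochondrial RNA, and Zswim4 (chromosome 8, 84210942 to 84237042), a zinc finger protein. Banp had 12.3, 12.4 and 10.9 FPKM in running, 7.39, 7.52 and 6.79 in control and 8.67, 11.1 and 12.2 in CUS, a log2 difference from control of 0.68. The log2 difference was 0.59 for Fastkd5, at 2.83 to 3.41 FPKM against 1.84 to 1.97, and 0.42 for Zswim4, at 5.68 to 6.21 FPKM against 4.23 to 4.41. Fastkd5 lies within Ubox5, and without strand their reads cannot be told apart. Just outside the rule stood Zfp189, with a log2 difference of 0.72.

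Of the lower genes, Nppc (chromosome 1, 86666293 to 86670573) is the precursor of C-type natriuretic peptide. At 4.97, 4.35 and 4.76 FPKM in running, it stood against 7.25, 7.49 and 7.69 in the controls. Its log2 difference was -0.62 (SE 0.0925, adjusted p = 0.0684), and CUS, at 8.58, 7.09 and 6.69 FPKM, surrounded the control values. Ramp3 (chromosome 11, 6658506 to 6677478) is an accessory protein that sets the ligand preference of the calcitonin receptor-like receptor. It had 15.6, 11.9 and 11.5 FPKM in running replicates 1, 2 and 3 and 19.1, 21.03 and 21.04 in the controls. Running replicate 1 was the highest of its group, and the log2 difference was -0.64 (SE 0.114, adjusted p = 0.0873). Mas1 (chromosome 17, 12838841 to 12868150), a G protein-coupled receptor for angiotensin-(1-7), had 11.1, 10.8 and 9.58 FPKM in running against 14.8, 14.3 and 13.6 in control, a log2 difference of -0.43. CUS values of Ramp3 (22.5, 18.99 and 18.1 FPKM) overlapped the control, and those of Mas1 (13.5, 12.7 and 13.3 FPKM) lay below it.

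Eif4ebp1 (chromosome 8, 27260327 to 27275656), also lower, is a repressor of cap-dependent translation that mTOR phosphorylates. The running libraries had 4.95, 4.93 and 5.82 FPKM and the controls 8.2, 8.57 and 8.01. The log2 difference was -0.61 (SE 0.104, adjusted p = 0.0750), and CUS had 10.6, 7.9 and 9.71 FPKM, of which 2 values were above all others. Gadd45g (chromosome 13, 51846675 to 51848475) is a stress- and activity-induced protein of the growth arrest and DNA damage family. Values were 9.15, 8.74 and 7.04 FPKM in running and 14.7, 12.3 and 16.1 in control. It had the most negative log2 difference of the 12, -0.75 (SE 0.142, adjusted p = 0.102), and CUS values were 10.8, 8.71 and 7.42 FPKM.

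The other lower genes have varied roles. Ninl (chromosome 2, 150934519 to 151009411), a centrosomal protein, had 1.57, 1.47 and 1.65 FPKM in running, 1.72, 1.56 and 1.63 in CUS and 2.39, 2.46 and 2.64 in control, a log2 difference of -0.54. Slc25a34 (chromosome 4, 141618819 to 141623891), a mitochondrial carrier, had 3.18, 3.66 and 3.14 FPKM in running, 3.17, 3.85 and 3.5 in CUS and 4.64, 5.15 and 5.0 in control, a log2 difference of -0.51. In these 2 genes the CUS and running values overlapped. Lor (chromosome 3, 92080271 to 92083142), the loricrin of the cornified envelope, had 3.35, 2.53 and 2.96 FPKM in running against 4.45, 4.74 and 5.16 in control, a log2 difference of -0.62. Zfp414 (chromosome 17, 33629092 to 33631716), a zinc finger protein, had 17.7, 19.8 and 20.9 FPKM against 25.6, 24.7 and 27.7, a log2 difference of -0.41. For Acbd4 (chromosome 11, 103101688 to 103112199), which binds acyl-CoA, the range was 9.67 to 9.96 FPKM against 12.6 to 13.2, a log2 difference of -0.37. At lower levels stood Fam71e1 (chromosome 7, 44496499 to 44504266), at 2.34 to 2.87 FPKM against 3.55 to 4.47, and Prrt4 (chromosome 6, 29169230 to 29179584), at 0.75 to 0.95 FPKM against 1.47 to 1.67. Acbd4 and Fam71e1 overlap neighbouring genes at their ends, by 23 bases with Plcd3 and 26 with Emc10. Just outside the rule was Pskh1, with a log2 difference of -0.50.

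**Figure D3:**
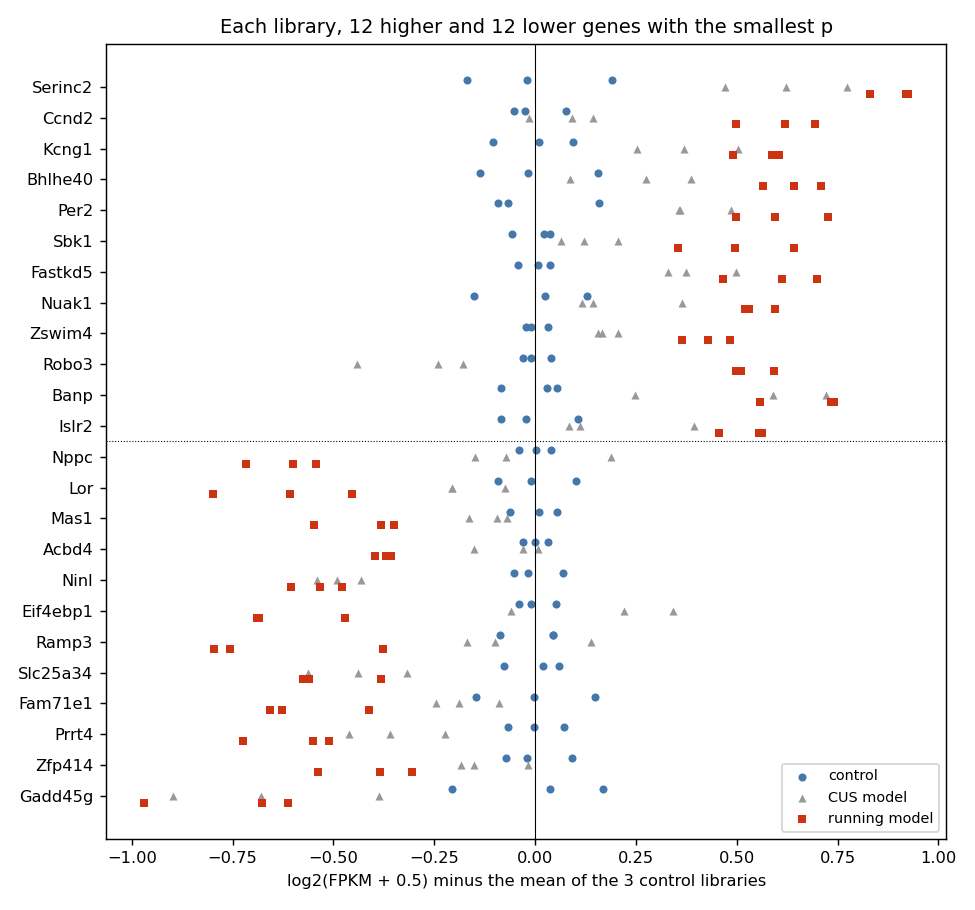
Log2(FPKM + 0.5) minus the mean of the 3 control libraries (horizontal axis) for the 12 higher and 12 lower genes (vertical axis), with 1 point for each control (circle), CUS (triangle) and running (square) library. Running squares lie apart from control circles in every gene, as the rule requires, and the CUS triangles of Robo3 lie on the other side of the control.

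Gene lists were described by counts and medians without a list test. The only list member past the adjusted threshold was Ccnd2, in the list of D-type cyclins. Counts of members below are set beside 5.15% of all genes higher and 6.47% lower (unadjusted p under 0.05), those without overlap of the groups beside 10.5% higher and 11.9% lower, and medians beside that of all genes, -0.02. Counts above and below 0 are set beside 43.8% and 56.2% of all genes. Of the 38 list medians, 35 moved by over 1.5 times or changed sign when 1 library was left out, most of them medians within 0.1 of 0.

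**Figure D4:**
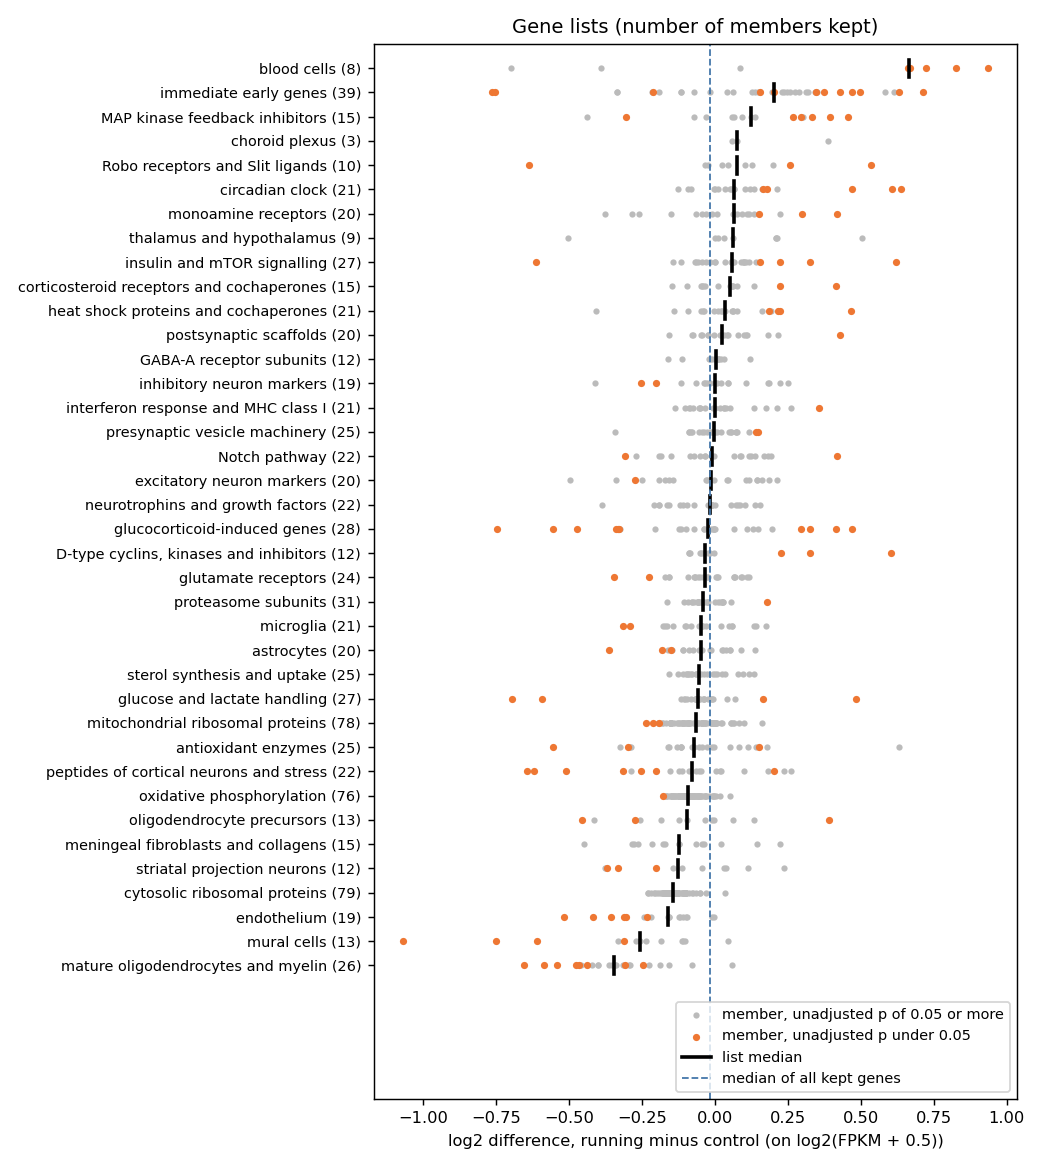
Log2 difference between running and control on the log2(FPKM + 0.5) scale (horizontal axis) of each kept member of 38 gene lists (vertical axis, with the number of members), with members at unadjusted p under 0.05 in orange, list medians as black bars and the median of all genes as a dashed line. Blood cell genes have the highest median at 0.66, immediate early genes stand at 0.20, and myelin genes have the lowest at -0.35.

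Clock genes were mostly above control. Of 21 kept clock genes, 16 were above 0 and 5 below, 5 members were higher and 0 lower (unadjusted p under 0.05), and 10 were higher and 0 lower without overlap of the groups. The median was 0.07 in running and 0.02 in CUS. Beside Bhlhe40 and Per2, the repressors Cry2, Nr1d2 and Per1 were higher. Cry2 had 42.5, 41.7 and 43.4 FPKM in running against 36.7, 38.1 and 37.8 in control, a log2 difference of 0.18 (unadjusted p = 0.00742). Nr1d2, a nuclear receptor that represses clock genes, had a log2 difference of 0.16 (unadjusted p = 0.00959), and its groups did not overlap. Per1 (chromosome 11, 69095108 to 69109965) also responds to neuronal activity and to glucocorticoids. In running it stood at 31.3, 45.03 and 34.1 FPKM, against 28.6, 21.5 and 28.9 in control. Running replicate 2 was the highest, the log2 difference was 0.47 (SE 0.157, adjusted p = 0.300), and CUS had 24.4, 23.7 and 18.3 FPKM. The median of the list was above 0 in each of the 19 alternative settings, between 0.04, which was without running replicate 2, and 0.12. The time of day at which tissue was taken is not given in the sources used here, and its part in these values was not tested.

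Clock proteins and Bhlhe40 act on the E-box, spelled CACGTG on both strands. The promoter of Per1 is shown for a clock gene that was higher, and that of Gadd45g for a named gene that was lower, since both hold the same letters. The sequences are those of RefSeq on GRCm38.p6, from 250 bases before to 50 after a gene start (1 of 2 starts listed for Per1), with CACGTG in capitals.
Per1 chr11:69098699-69098998, plus strand: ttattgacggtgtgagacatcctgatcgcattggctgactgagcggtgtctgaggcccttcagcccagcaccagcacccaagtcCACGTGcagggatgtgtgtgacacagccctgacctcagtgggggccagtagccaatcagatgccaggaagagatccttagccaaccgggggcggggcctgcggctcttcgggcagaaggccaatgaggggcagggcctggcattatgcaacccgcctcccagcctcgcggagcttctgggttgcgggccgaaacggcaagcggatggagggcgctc
Gadd45g chr13:51846425-51846724, plus strand: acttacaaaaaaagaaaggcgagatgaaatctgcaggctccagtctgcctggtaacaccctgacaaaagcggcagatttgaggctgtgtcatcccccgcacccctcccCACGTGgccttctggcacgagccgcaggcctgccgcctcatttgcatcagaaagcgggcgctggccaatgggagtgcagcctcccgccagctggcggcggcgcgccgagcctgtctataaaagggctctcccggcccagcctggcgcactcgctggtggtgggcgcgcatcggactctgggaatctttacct
CACGTG begins 166 bases before the Per1 start and 142 bases before the Gadd45g start. Among 32851 promoters of this length, 7.15% hold it. Counted by gene, 8.09% of 27025 genes have it in a listed promoter, as do 5 of the 18 clock genes with a promoter in the table. The same holds for 9 of the 32 immediate early genes with a listed promoter. Of the other higher clock genes named above, Cry2 and Nr1d2 lack it, and Per2 and Bhlhe40 have no listed promoter. A match is a description of the letters and not a binding site.

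Immediate early genes, the transcription factors and effectors that neuronal activity induces, were above 0 more often than below. Of 39 kept members, 28 were above 0 and 11 below, with 9 higher and 3 lower (unadjusted p under 0.05) and a median of 0.20, where the CUS median was -0.44. This rested on control replicate 2: its mean score over the list was -0.21 against 0.25 and 0.24 in the other controls and 0.18 to 0.31 in running, and without it the median was 0.03. Ier5 had 34.3, 30.5 and 30.7 FPKM in running against 26.3, 22.6 and 24.5 in control, a log2 difference of 0.37 (adjusted p = 0.106). Nr4a3, an orphan nuclear receptor, had 8.57, 12.7 and 10.3 FPKM against 6.14, 5.53 and 6.82, a log2 difference of 0.71 (adjusted p = 0.107). Their running values were above all CUS values as well, at 24.9, 25.6 and 27.6 FPKM for Ier5 and 5.67, 6.52 and 7.65 for Nr4a3. Nab2, a corepressor of Egr proteins, had a log2 difference of 0.34, and of 0.22 without control replicate 2.

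Other members, chosen after their values were seen, did not move together. Arc, a regulator of AMPA receptor traffic, had 123, 137 and 139 FPKM in running, 115, 49.3 and 122 in control and 42.3, 57.02 and 30.3 in CUS. Without control replicate 2, the low control, its log2 difference was 0.16 in place of 0.58. Fos, a component of AP-1, had 21.7, 24.3 and 24.3 FPKM in running against 23.6, 12.1 and 23.03 in control, with a log2 difference of 0.31 that was 0.00 without the same library and 0.47 without control replicate 1. Npas4, an activity-dependent transcription factor of synapse formation, was lower in running, at 15.8, 11.6 and 14.1 FPKM against 28.7, 21.2 and 21.7, a log2 difference of -0.76 (unadjusted p = 0.0384). For Bdnf, the neurotrophin, running values of 11.2, 9.83 and 11.9 FPKM overlapped control values of 11.03, 9.39 and 9.38, a log2 difference of 0.14 that lay between 0.08 and 0.21 without 1 library. Thus Arc and Fos in running were near the 2 higher control libraries, and Npas4 was below all of them.

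MAP kinase feedback inhibitors, which limit growth factor and activity signals, had 11 members above 0 and 4 below, with 5 higher and 1 lower at p under 0.05 of 15, and a median of 0.12 (CUS -0.14). Spred2, a membrane-bound inhibitor of Ras and Raf signalling, had 33.3, 36.4 and 34.6 FPKM in running against 29, 27.4 and 22.98 in control, a log2 difference of 0.39 (adjusted p = 0.149). Spred1 had a log2 difference of 0.33, and the phosphatase gene Dusp4 one of 0.45, which was 0.30 without control replicate 2. Spry1 went the other way, at 3.3, 3.49 and 2.9 FPKM against 4.01, 4.35 and 3.95, a log2 difference of -0.31.

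Glucocorticoid-induced genes were split. Of 28 members, 9 were above 0 and 19 below, with 4 higher and 6 lower at p under 0.05, and the median of -0.03 (CUS -0.33) changed sign in 4 of the 19 alternative settings (TPM, quantile normalization, without control replicate 3 and without running replicate 1). Errfi1, an inhibitor of the EGF receptor, was higher at 11.1, 11.7 and 10.2 FPKM against 9.4, 8.1 and 9.14, a log2 difference of 0.29. Hif3a, a hypoxia-inducible factor subunit, was lower, at 2.39, 2.71 and 2.6 FPKM in running, 1.53, 2.13 and 2.52 in CUS and 3.66, 3.39 and 4.25 in control, with a log2 difference of -0.47. Mt2, a metallothionein, was lower at 131, 148 and 150.1 FPKM against 206, 169.8 and 266, a log2 difference of -0.56. Of 15 corticosteroid receptors and cochaperones, 2 were higher and 0 lower at p under 0.05, with a median of 0.05 (0.02 to 0.09 over the settings). Fkbp5, a cochaperone that lowers the affinity of the glucocorticoid receptor for hormone, had 13.01, 15.2 and 14.7 FPKM against 10.8, 8.26 and 13.2, groups that overlapped. Its log2 difference was 0.41, and 0.24 without control replicate 2. Dnajb1 had a log2 difference of 0.22.

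Cyclins stood at the head of the list of D-type cyclins, their kinases and inhibitors, of which 3 of 12 were higher and 0 lower at p under 0.05. These 3 were the only members above 0, and 9 were below. Without overlap of the groups, 3 were higher and 2 lower. The median of -0.03 changed sign in 2 of the 19 settings, with the length and GC trend removed and without running replicate 1. Ccnd1, cyclin D1, had 16.8, 17.3 and 19.3 FPKM in running, 15.3, 14.4 and 12.7 in control and 12.1, 12.3 and 13.7 in CUS, a log2 difference of 0.33 (SE 0.0843, adjusted p = 0.206). Its annotation overlaps that of LTO1 by 818 bases. E2f3, a transcription factor of the cell cycle, had a log2 difference of 0.23.

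In insulin and mTOR signalling, 16 of 27 members were above 0 and 11 below, with 4 higher and 1 lower at p under 0.05 and a median of 0.06 (0.03 to 0.10 over the settings). Irs2, the insulin receptor substrate, had 12.6, 17.3 and 15.3 FPKM in running, 10.2, 8.25 and 10.3 in control and 8.58, 11.02 and 9.73 in CUS, and the running values did not overlap those of either group. The log2 difference of Irs2 was 0.62 (SE 0.129, adjusted p = 0.130). Against the lower Eif4ebp1 stood its relative Eif4ebp2, with 12.5, 15.1 and 14.2 FPKM against 12.3, 11.4 and 11.8, a log2 difference of 0.22. Pik3ca, a catalytic subunit of PI3 kinase, had a log2 difference of 0.15.

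Genes of glucose and lactate handling were below 0 in 23 of 27 cases, with 2 higher and 2 lower at p under 0.05 and a median of -0.06 that lay between -0.07 and -0.01 over the settings. Pfkfb3, which makes the activator of the glycolytic enzyme phosphofructokinase, was among the 20 higher genes at adjusted p under 0.1. Running values of 10.7, 10.6 and 10.5 FPKM compare with 7.83, 7.41 and 7.15 in control. The running libraries lay close together and above all controls, CUS had 6.64, 7.9 and 8.49 FPKM, and the log2 difference was 0.48 (SE 0.0850, adjusted p = 0.0870). Slc2a3, the neuronal glucose transporter, had 44.5, 46.9 and 45.2 FPKM against 41.98, 40.5 and 39.4, a log2 difference of 0.16. Slc16a3, a transporter that exports lactate, was lower at 0.88, 0.9 and 0.83 FPKM against 1.79, 1.2 and 1.77, a log2 difference of -0.59, and it overlaps Csnk1d by 1292 bases. Pygm, the glycogen phosphorylase that muscle shares with brain, had 9.26, 10.1 and 9.19 FPKM against 23.4, 11.4 and 14.3. Its highest value was in control replicate 1, which held the muscle transcripts, and its log2 difference was -0.41 without that library against -0.69 with it.

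**Figure D5:**
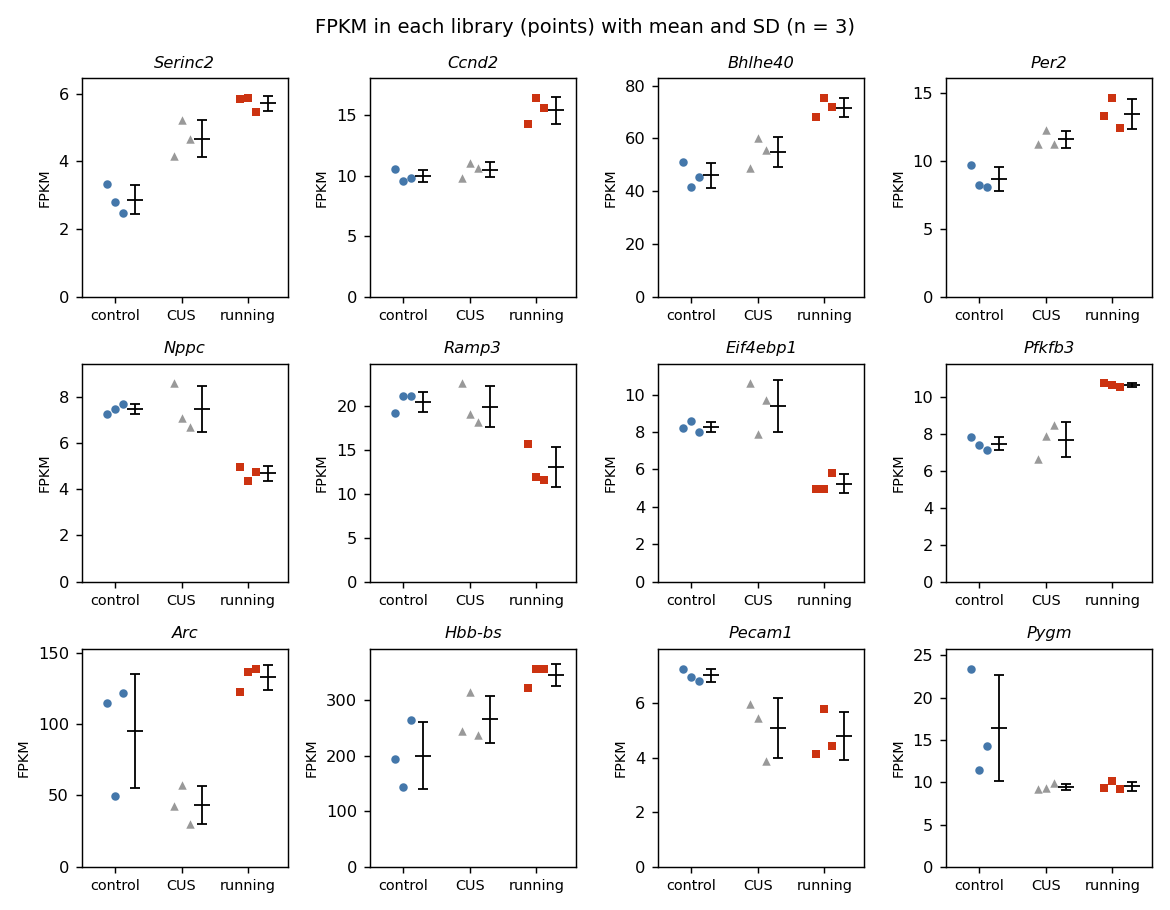
FPKM (vertical axes, from 0) of 12 genes in each control, CUS and running library (points, 3 a group), with the mean and SD of each group beside the points. Serinc2, Ccnd2 and Pfkfb3 have running values above all controls, Arc has 1 low control at 49.3, and Pygm has 1 high control at 23.4.

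Of peptides and their receptors, 8 of 22 were above 0 and 14 below. This is 63.64% below, not far from the 56.2% of all genes. At p under 0.05, 1 was higher and 6 were lower. Their median was -0.08, and -0.02 without control replicate 3. Beside Nppc and Ramp3, Grp, the gastrin-releasing peptide precursor, had 15.7, 15.6 and 11.99 FPKM in running, 20.9, 20.6 and 20.3 in control and 24.7, 24.2 and 29.7 in CUS. Running values of Grp were below both other groups, with a log2 difference from control of -0.51 (SE 0.106, adjusted p = 0.131). The interneuron peptide Cort had 12.4, 12.6 and 13.3 FPKM against 17.2, 14.4 and 16.6, a log2 difference of -0.31 (adjusted p = 0.151). Its relative Sst had 495, 451 and 441 FPKM against 599, 471 and 592, groups that overlapped, and a log2 difference of -0.25. Tac1, the precursor of substance P, had a log2 difference of -0.20. Inhibitory neuron markers as a list had 10 of 19 above 0. Their median of 0.00 lay between -0.03 and 0.04 over the settings and changed sign in 4 of them (library quality weights, without control replicate 2 and without running replicate 2 or 3), and Sst and Tac1 belong to this list as well.

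Receptors and synaptic proteins differed little. Of 20 monoamine receptors, 3 were higher and 0 lower at p under 0.05, all of them serotonin receptors. Htr1b, a presynaptic autoreceptor and heteroreceptor, had 3.67, 3.91 and 3.65 FPKM in running against 3.63, 3.02 and 2.33 in control, Htr2a had 8.27, 7.57 and 12.04 against 8.22, 5.81 and 6.25 with overlap, and Htr2c had 5.37, 5.59 and 5.45 against 4.8, 4.7 and 5.13. Their log2 differences were 0.30, 0.42 and 0.15. Without control replicate 3 the value for Htr1b was 0.15, and without running replicate 3 that for Htr2a was 0.23. The median of the receptor list was 0.06, and -0.02 without running replicate 1. Of 24 glutamate receptors, 0 were higher and 2 lower at p under 0.05, namely the kainate subunit Grik1 with a log2 difference of -0.35 and the presynaptic receptor Grm2 with -0.23, and the median of -0.03 changed sign after rescaling to TPM. Homer1, a scaffold of the postsynaptic density that activity also induces, was the 1 of 20 postsynaptic scaffolds higher at p under 0.05, at 39.6, 42.6 and 47.5 FPKM against 34.2, 32.5 and 29.1. In the presynaptic list 2 of 25 were higher, Erc2 and Cplx2, with log2 differences of 0.14 (0.09 without control replicate 3) and 0.15. None of 12 GABA-A subunits had a p under 0.05. Of 20 excitatory neuron markers, 0 were higher and 1 was lower, the cortical transcription factor Emx1 at -0.28, and the median of -0.01 changed sign in 3 of the 19 settings (TPM, quantile normalization, length and GC).

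Robo receptors and Slit ligands, the guidance system of growing axons, had 7 of 10 members above 0, with 2 higher and 1 lower at p under 0.05 and a median of 0.07 (0.05 to 0.11 over the settings). Robo2 had 13.8, 12.1 and 14.4 FPKM in running, 11.5, 11.2 and 10.6 in control and 10.4, 10.3 and 9.38 in CUS, a log2 difference of 0.26. Robo4, the endothelial member, was lower at 2.03, 2.38 and 1.77 FPKM against 3.8, 2.95 and 3.69, a log2 difference of -0.64 (adjusted p = 0.105). Robo3 and Robo4 are neighbours on chromosome 9, and in running their differences had opposite signs. In the Notch pathway 1 of 22 was higher, the effector Hes1 with a log2 difference of 0.42, and 1 lower, Heyl, a Notch target of vessels, with -0.31, or -0.20 without control replicate 2, whose groups overlapped.

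Genes of protein synthesis and respiration lay slightly below control. Of 79 cytosolic ribosomal protein genes, 78 were below 0 and 1 above, with 39 lower without overlap, yet 0 had a p under 0.05 in either direction, and the median was -0.15 in running and 0.22 in CUS. The CUS value moved with CUS replicate 3: the mean score over the list was 0.0722, 0.0400 and 0.468 in CUS replicates 1 to 3, where the controls had -0.0744, -0.0972 and 0.0921. Rpl41 had 675, 655 and 659.9 FPKM in running, 767, 719 and 857 in control and 753, 798 and 1046 in CUS, a log2 difference of -0.23 (unadjusted p = 0.0730). Its SD was 158 FPKM in CUS, 70.0 in control and 10.5 in running. The p-values use the spread of all groups, so a wide CUS group raises them. The 0 members at p under 0.05 are therefore no sign that running and control were alike. Many ribosomal protein genes have near-identical copies, so single values are uncertain. Without control replicate 3 the median was -0.08, and with the length and GC trend removed it was -0.10. Of 78 mitochondrial ribosomal protein genes, 64 were below 0, with 0 higher and 3 lower at p under 0.05 (Mrpl53, Mrpl46 and Mrps34) and a median of -0.06 (-0.11 to -0.03 over the settings). The log2 difference of Mrps34 was -0.19, and -0.12 without control replicate 3. Of 76 genes of oxidative phosphorylation, 73 were below 0, with 1 lower at p under 0.05, and the median of -0.09 was -0.05 without control replicate 3 and -0.04 with the length and GC trend removed. That gene was Ndufs7 of complex I, at 93.1, 83.9 and 85.95 FPKM against 93.3, 97.2 and 107, a log2 difference of -0.18. Proteasome subunits had a median of -0.04 (-0.09 to -0.01 over the settings), with Psmd11 the 1 of 31 higher at p under 0.05.

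Heat shock proteins and cochaperones had 14 of 21 members above 0, with 4 higher and 0 lower at p under 0.05. Dnajb5 had 61.8, 62.7 and 65.2 FPKM in running, 49.4, 40.2 and 47.96 in control and 41.5, 47.7 and 54.5 in CUS, a log2 difference of 0.46 (adjusted p = 0.149), and Dnajb4 one of 0.21. Antioxidant enzymes had 1 of 25 higher and 2 lower. Gclc of glutathione synthesis had a log2 difference of 0.15, and the extracellular superoxide dismutase Sod3 had one of -0.30. Sterol synthesis genes and neurotrophins had 0 members at p under 0.05 in either direction, of 25 and 22. Of 21 genes of the interferon response and MHC class I, 1 was higher, Irf9 at 0.36, or 0.23 without control replicate 2.

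Myelin genes were below control in 25 of 26 cases, with 0 higher and 8 lower at p under 0.05 and a median of -0.35 (CUS -0.37). In bulk tissue fewer cells of a type and less RNA per cell cannot be told apart. This list moved with control replicate 3, the library with the high Ttr value, whose summed myelin FPKM was 1677 against 968 and 1030 in the other controls, 892 to 965 in running and 796 to 1067 in CUS, and without it the median was -0.14. Cldn11, a tight junction protein of myelin, had 24.6, 25.1 and 24.2 FPKM in running against 28.98, 29.8 and 47.4 in control, a log2 difference of -0.48 that was -0.25 without that library. For Opalin, an oligodendrocyte membrane protein, the values were 2.82, 2.21 and 2.2 against 3.01, 4.13 and 5.35 FPKM, and the log2 difference of -0.66 was -0.48 without it. Gsn, at -0.25, and the transcription factor gene Nkx6-2, at -0.54 and at -0.36 without control replicate 3, were the others with the smallest p. Among 13 genes of oligodendrocyte precursors, 1 was higher and 2 lower at p under 0.05. Gpr17, a receptor of cells about to mature, was higher at 9.21, 11.4 and 11.3 FPKM against 8.0, 7.57 and 8.34, a log2 difference of 0.39, while Enpp6, which marks newly formed oligodendrocytes, was lower at 0.7, 0.64 and 0.27 against 0.76, 0.96 and 0.98, a log2 difference of -0.46 that was -0.26 without running replicate 3. Olig1 had a log2 difference of -0.27.

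Medians of the astrocyte and microglial lists were close to the median of all genes. Of 20 astrocyte genes, 0 were higher and 3 lower at p under 0.05, and the median of -0.05 changed sign in 2 of the 19 settings, with the length and GC trend removed and without running replicate 1. Gfap, the intermediate filament of astrocytes, had 22.8, 27.3 and 24.04 FPKM in running against 32.2, 27.6 and 36.4 in control, a log2 difference of -0.36, and Clu and Sox9 had -0.18 (-0.11 without control replicate 3) and -0.15. Of 21 microglial genes, 2 were lower at p under 0.05, with a list median of -0.05 (-0.08 to -0.01 over the settings). Without overlap of the groups, 7 microglial genes were lower and 2 higher. Cd68, a lysosomal protein of phagocytes, had 6.81, 7.21 and 7.18 FPKM in running, 9.18, 8.08 and 9.03 in control and 9.66, 9.44 and 9.51 in CUS, a log2 difference of -0.29 (adjusted p = 0.161), and Trem2, a lipid receptor, one of -0.32.

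Vessel genes were below control in 19 of 19 endothelial and 12 of 13 mural cases. At p under 0.05, 6 endothelial and 4 mural genes were lower and 0 higher, and the medians were -0.16 and -0.26 (CUS -0.16 and -0.27). Running replicate 2 did not share this: its summed endothelial FPKM was 230 against 185 in each of the other running libraries and 225 to 243 in control, and without it the endothelial median was -0.30. Without running replicate 1 the medians were -0.11 and -0.17, and without running replicate 3 the endothelial one was -0.11. Egfl7, a secreted factor of endothelium, had 17.3, 16.3 and 16.8 FPKM in running, 19.99, 22.2 and 20.4 in control and 20.5, 21.7 and 20.7 in CUS, a log2 difference of -0.31 (adjusted p = 0.105). Pecam1, an adhesion molecule of endothelial junctions, had 4.13, 5.79 and 4.43 FPKM against 7.26, 6.95 and 6.81, a log2 difference of -0.52. In both genes the 3 running values lay below all controls. Vtn of pericytes had a log2 difference of -0.31, and the smooth muscle genes Tagln and Acta2 had -0.75 and -0.61, with overlap. Tagln was at -0.45 without running replicate 1, and Acta2 at -0.35 without running replicate 3. Des, which skeletal muscle also expresses, had 5.60 FPKM in control replicate 1, and its log2 difference was -0.42 without that library against -1.07 with it.

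Red cell genes were higher in running. Of 8 kept blood genes, 6 were above 0, with 5 higher and 0 lower at p under 0.05 and a median of 0.66 (CUS 0.24). The 5 were the 4 haemoglobin genes and Alas2, the first enzyme of haem synthesis in red cells. At 3.33, 4.36 and 5.05 FPKM in running, it stood against 1.88, 1.68 and 2.35 in the controls. Its groups did not overlap, and the log2 difference was 0.93 (SE 0.171, adjusted p = 0.0913). Alas2 lies within the annotated span of Apex2, and without strand their reads cannot be told apart where exons coincide. Apex2 had a mean of 2.78 FPKM over the 9 libraries and a log2 difference of 0.09. For Hbb-bs, an adult beta globin, running had 322, 357 and 356 FPKM, control 193, 144 and 264 and CUS 245, 314 and 238, a log2 difference of 0.83 (adjusted p = 0.149). Its near-identical neighbour Hbb-bt had 49.1, 51.05 and 42.2 FPKM in running against 27.3, 25.9 and 36.6 in control, a log2 difference of 0.67 (adjusted p = 0.105). The alpha globin Hba-a1 had 367, 506 and 405 FPKM against 265, 189 and 333, a log2 difference of 0.72. Haemoglobin copies share reads, so how the authors' counting split them is uncertain, and their sum with Alas2 was 972 to 1238 FPKM in running, 493 to 875 in control and 683 to 1040 in CUS. Ptprc and the neutrophil genes S100a8 and S100a9, the other kept blood genes, had log2 differences of 0.08, -0.70 and -0.39 with overlap. The amount of blood left in the tissue is not given in the sources used here, and its part in these values was not tested.

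The promoters of 2 beta globin genes and Alas2 are shown as examples of the 5 higher genes. Those of Hba-a1 and Hba-a2 are not printed, and of the motifs below they hold the CCAAT box alone. Motifs were searched on both strands and are in capitals. The first is AGATAA, a motif of the kind that GATA factors bind, which on the other strand reads TTATCT. The second is CCACACCC, an erythroid promoter box. The third is CCAAT, which on the other strand reads ATTGG and which many promoters share.
Hbb-bs chr7:103827879-103828178, minus strand: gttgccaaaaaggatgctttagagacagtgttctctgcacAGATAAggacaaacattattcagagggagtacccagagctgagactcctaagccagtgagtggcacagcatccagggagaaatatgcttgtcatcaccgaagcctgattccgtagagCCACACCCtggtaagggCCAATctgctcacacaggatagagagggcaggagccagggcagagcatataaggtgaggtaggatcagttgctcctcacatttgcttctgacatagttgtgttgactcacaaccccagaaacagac
Hbb-bt chr7:103813874-103814173, minus strand: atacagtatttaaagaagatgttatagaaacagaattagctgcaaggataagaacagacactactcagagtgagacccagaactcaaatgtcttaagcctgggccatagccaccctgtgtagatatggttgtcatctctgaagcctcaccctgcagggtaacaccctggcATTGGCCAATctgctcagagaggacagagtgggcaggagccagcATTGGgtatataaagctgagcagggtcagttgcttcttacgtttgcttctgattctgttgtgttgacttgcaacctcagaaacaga
Alas2 chrX:150547167-150547466, plus strand: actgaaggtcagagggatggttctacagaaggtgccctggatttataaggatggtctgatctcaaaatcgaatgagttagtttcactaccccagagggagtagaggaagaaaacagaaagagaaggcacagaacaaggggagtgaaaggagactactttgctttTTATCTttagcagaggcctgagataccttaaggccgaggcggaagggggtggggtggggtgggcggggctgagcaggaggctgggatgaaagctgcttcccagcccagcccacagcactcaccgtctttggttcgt
Hbb-bs holds all 3 motifs, with AGATAA beginning 210, CCACACCC 93 and CCAAT 76 bases before the start. Hbb-bt holds the CCAAT letters at 80, 75 and 36 bases before the start, and Alas2 holds TTATCT at 86. Of the 8 blood genes, AGATAA is in 4, among them Ptprc and S100a9, CCACACCC is in 1 and CCAAT in 4. Counted the same way over 27025 genes, 12.7% have AGATAA, 4.09% CCACACCC and 41.1% CCAAT. Among all 32851 promoters, these shares are 11.2%, 3.56% and 37.4%.

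Neighbouring tissues were checked with further lists. Of 12 kept striatal genes, 0 were higher and 3 lower at p under 0.05, with a median of -0.13 that was -0.19 without control replicate 1 and -0.03 without control replicate 2, and the summed striatal FPKM overlapped between groups (157 to 179 in control, 157 to 167 in running). Rgs9, a regulator of dopamine receptor signalling, had 8.08, 7.37 and 5.6 FPKM against 8.94, 9.27 and 8.39, a log2 difference of -0.33 that was -0.19 without running replicate 3. None of 15 meningeal, 9 thalamic and hypothalamic or 3 choroid plexus genes kept had a p under 0.05. The meningeal median was -0.12, with 0.01 without running replicate 1 and -0.33 without running replicate 2, and running replicate 2 had the highest meningeal sum of the group, 111 against 74.9 and 77.99.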

How the data were processed

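Bulk tissue RNA of 9 libraries was sequenced, 3 in each of 3 groups. Per the labels' protocols, mRNA was captured on oligo(dT) beads and copied with random hexamers, and no step marks the strand. The submitters' processing notes name RSEM 1.2.12, Bowtie2 2.2.5, DESeq2 1.4.5 and the build mm10. Not given in the sources used here are what each tool did and which annotation it used. FPKM values were deposited by the authors, rounded to 2 decimals, in 1 table of 65389 rows. The 30264 rows without a gene symbol were at 0 in all libraries and were left out.

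Values were analysed as log2(FPKM + 0.5). A log2 difference on this scale understates the change of low genes. Genes that reached 0.5 FPKM in 3 or more of 9 libraries were kept, which gave 14013. Running was compared with control in limma 3.58.1 (R 4.3.3), with all 9 libraries in 1 model, a variance trend with level and Benjamini-Hochberg adjustment over the 14013 genes, and a gene was called at adjusted p under 0.05. Residual degrees of freedom were 6, and the prior ones had a median of 4.71. An exact test of 3 against 3 libraries cannot give a p under 0.1. The code was tested on simulated data.

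Libraries were assigned by label, while the choice of this comparison, its members and the 38 gene lists was made with earlier results of these data known. Named genes are those called, filled up to 12 higher and 12 lower with the smallest p, at least 1 FPKM on average and groups without overlap, passing over predicted, Riken clone and Y-linked genes. In each list up to 4 members with the smallest p were eligible, with the 2 highest-expressed members where fewer than 2 had p under 0.05. Not every eligible gene is described. Fos, Npas4, Arc, Bdnf, Myl2 and Gm36327, the muscle genes and Ttr were named after their values were seen, as were genes given as markers of a cell type. A score is the mean over a list of log2 values, each centred on the mean of its gene over 9 libraries. Coordinates and promoters are those of GRCm38.p6 from RefSeq, and 13984 genes matched by identifier. Length and GC content were found for 13766 genes. Annotated overlap with another kept gene also holds for Nab2 with Stat6, Gpr17 with Lims2, Tagln with Pcsk7, Dnajb4 with Fubp1, Nkx6-2 with Inpp5a and Mrpl53 with Ccdc142. The alternatives tried were other pseudocounts, filters, scalings and variance models, correction for length and GC content, and leaving out each library.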

Additional observations from a re-analysis of the deposited data

How the results depend on the processing

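Of the 76 recomputed counts of genes, 44 stayed within 1.5 times the values reported. The 3 called genes were 1 with no filter on low values, 7 with no variance trend, 9 (all higher) with the length and GC trend removed, 24 with only the 6 libraries of the 2 groups and 147 with library quality weights. Leaving out 1 library gave 1 to 10 called genes. The 33 genes at adjusted p under 0.1 were 1 with no filter, 51 with quantile normalization, 54 after rescaling to TPM, 59 with length and GC removed, 222 with 6 libraries, 570 with quality weights and 1 to 150 without 1 library. The 1628 genes at unadjusted p under 0.05 were 2722 with quality weights and 1056 to 2297 without 1 library. The 3142 genes without overlap were 3142 to 5150 without 1 library, where fewer values have to be separated. Apart from that construction and the changed number of samples or genes, the cause was not tested.

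No sign changed among the 111 genes, which were recomputed in 17 to 19 settings each. Of these, 25 moved by over 1.5 times without 1 library. List medians moved by more than their spread in 8 cases. With length and GC removed, clock genes were at 0.12 and D-type cyclins at 0.01. Glucose handling was at -0.01 with quantile normalization. Monoamine receptors were at 0.00 without control replicate 2 and -0.02 without running replicate 1, where D-type cyclins were at 0.02. Peptides were at -0.02 without control replicate 3 and -0.01 without running replicate 2.

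No paired analysis was possible because the control and running labels share no number. Read depth is unknown, so counting intervals are not given.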

Other observations

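The genes below differed by over 2-fold, and all were chosen after their values were seen. Sftpc, a surfactant protein of lung, had 4.76, 0.80 and 4.15 FPKM in running against 0.07, 1.01 and 0.66 in control, with overlap. The histone gene H4c12 had 0.52, 1.32 and 0.86 FPKM in running and 0, 0 and 0.30 in control, below the level of 0.5 FPKM in every control. Ccl21b, a chemokine with near-identical copies, had 5.18, 15.4 and 20.6 FPKM in running against 19.3, 33.1 and 39.9 in control, with overlap. Tnnt3, a troponin of fast muscle and 1 of the 20 muscle genes, had 78.7 FPKM in control replicate 1, 4.95 and 2.53 in the other controls, and 0, 5.88 and 0.16 in running, so running replicate 2 stood above the rest of its group.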
